A study of Mus musculus with 18 samples.

Results

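Polycomb group genes code for the subunits of 2 chromatin complexes, and 10 of them were followed in ES cells of the mouse strain FVB/N. Ezh1, Ezh2, Eed, Suz12 and Jarid2 belong to Polycomb repressive complex 2 (PRC2), and Rnf2, Ring1, Bmi1, Phc1 and Cbx2 to Polycomb repressive complex 1 (PRC1). Every probe set that the annotation of the chips pairs with one of these genes and with no other gene was taken. This gave 18 of 36701 probe sets and 10 of 15964 genes, with 9 probe sets and 5 genes in each complex. Ezh1, Ezh2, Eed, Ring1, Bmi1 and Phc1 were read by 1 probe set each, Cbx2 by 2, Suz12 and Jarid2 by 3 and Rnf2 by 4. Probe sets of a gene share their transcript and are no replicates of one another.

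In the WT group, FVB/N ES cells carried no transgene and were kept with LIF, the cytokine that activates the transcription factor STAT3. In the STAT3-MER group, FVB/N ES cells of a transgenic line carried a STAT3-MER transgene under the chicken β-actin promoter and were kept without LIF but with 4-hydroxytamoxifen (OHT). STAT3-MER is STAT3 fused to the part of the estrogen receptor that binds hormone, and OHT activates it. Transgene, line, LIF and OHT therefore differed together between the groups, and their parts cannot be told apart. Each group was 1 line grown in 3 dishes, so p-values measure the spread between dishes and not between lines. Feeder layers of mouse embryonic fibroblasts had been used to establish both lines. RNA of each dish was amplified in 2 rounds and read on the chips U74Av2, U74Bv2 and U74Cv2, which gave 18 arrays.

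In textbook terms, PRC2 places methyl groups on a lysine of the tail of histone H3, and PRC1 places ubiquitin on histone H2A. Both marks lie on the promoters of developmental regulators that ES cells keep silent. Polycomb complexes in mouse cells are found mostly at promoters rich in CG dinucleotides.

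The promoters of the members were looked up first, to show how rich in CG they are themselves and whether they hold the palindrome that STAT proteins bind. RefSeq (GRCm38.p6) windows from 250 bases before to 50 bases after a transcription start were given for 9 of the 10 genes, with 2 windows for Jarid2 and none for Cbx2. The 10 windows held 9 to 41 CG dinucleotides with a median of 23.5, against a median of 7 over all 32851 windows. At least 20 were counted in 8 of the 10 windows and in 26.5% of all windows. The palindrome TTCNNNGAA, which reads the same on both strands, occurred in 1 of the 10 windows, that of Phc1, and in 8.30% of all windows. A match describes the letters only. The window of Ezh2 at chr6:47594981-47595280 (minus strand, 31 CG) is shown because Ezh2 was the only member whose groups did not overlap, with each CG in capitals. The window of Phc1 at chr6:122340178-122340477 (minus strand, 9 CG) is shown because it alone held the palindrome, which is in capitals. Both run from 5′ to 3′ in the direction of the gene.
Ezh2 promoter: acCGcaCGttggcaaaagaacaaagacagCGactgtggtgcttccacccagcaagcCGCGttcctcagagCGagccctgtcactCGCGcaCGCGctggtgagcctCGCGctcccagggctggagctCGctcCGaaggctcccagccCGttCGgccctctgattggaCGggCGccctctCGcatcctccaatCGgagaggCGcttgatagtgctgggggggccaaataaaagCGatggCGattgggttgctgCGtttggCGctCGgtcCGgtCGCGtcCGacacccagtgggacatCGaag
Phc1 promoter: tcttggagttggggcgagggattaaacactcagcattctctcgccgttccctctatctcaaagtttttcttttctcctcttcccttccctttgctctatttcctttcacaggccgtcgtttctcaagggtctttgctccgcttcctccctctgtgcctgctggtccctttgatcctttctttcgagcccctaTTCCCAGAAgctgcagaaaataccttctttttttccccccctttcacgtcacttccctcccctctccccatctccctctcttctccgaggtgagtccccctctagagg

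The arrays were checked before the members were compared. The median signal of an array was between 132 and 157 on U74Av2, between 246 and 269 on U74Bv2 and between 190 and 231 on U74Cv2, and the number of arrays limits the precision. The transgene was read by an Esr1 probe set, which gave signals of 40.3, 19.7 and 9.25 in the WT dishes and of 25848, 25568 and 31548 in the STAT3-MER dishes (log2 fold change 9.01, limma adjusted p = 7.58e-06). This was the only probe set of the 36701 past an adjusted p of 0.05. The other 5 Esr1 probe sets had ratios of means from 0.485 to 1.85 and the 4 of Stat3 from 0.964 to 1.66, so the transgene was seen by 1 probe set alone. All 8 ES cell markers were read on U74Av2, with no single signal below 537, with Nanog at 9602 ± 3974 for WT and 10107 ± 1499 for STAT3-MER dishes (SD, n = 3 each), and their summed signal was 55081 to 81623 for WT and 59650 to 70469 for STAT3-MER dishes. Of 18 fibroblast markers 17 were read on this chip, with no single signal below 36.5, and their summed signal was 18812 to 45833 for WT and 11404 to 44749 for STAT3-MER dishes. All 17 had a log2 fold change below 0 (median -0.27), and none passed the test (Col1a1 -0.09, Col1a2 -0.27). Their ratios of mean signals ran from 0.622 to 1.04. The low STAT3-MER sum was that of replicate 1 alone, with 44749 and 34328 in replicates 2 and 3. The WT dishes gave 37851, 18812 and 45833. The part of feeder RNA in the results below was not tested. In such bulk RNA, fewer cells of a type and less RNA per cell cannot be told apart.

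One pair of arrays of each chip stood apart in the Gapdh control, which is read by probe sets at the 3′ end and in the middle of the transcript. On U74Av2 the ratio of the middle to the 3′ signal was lowest in WT replicate 1 (0.261) and STAT3-MER replicate 2 (0.316), against 0.378 to 0.484 in the other 4 arrays. On U74Bv2 it was lowest in WT replicate 2 (0.262) and STAT3-MER replicate 2 (0.315), and on U74Cv2 in the same pair (0.265 and 0.368). The array labelled WT replicate 1 on U74Av2 thus resembled those labelled WT replicate 2 on the other chips, and whether these numbers name the same dish is in doubt. By the ratio of the middle to the 3′ signal, the Actb control set only the WT arrays apart in the same way. This ratio was low in the WT arrays named (0.438, 0.421 and 0.478). In STAT3-MER replicate 2 it was the highest of the 6 arrays on U74Av2 (0.596) and U74Bv2 (0.56). On U74Cv2 it was in the middle of its group (0.551). The ratio of the 5′ to the 3′ Actb signal was lowest of its group in the same WT arrays (0.128, 0.111 and 0.15). It was also lowest of its group in STAT3-MER replicate 2 (0.183, 0.17 and 0.165). On U74Bv2 the other STAT3-MER arrays were close to it (0.172 and 0.174).

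No Polycomb member passed the test between STAT3-MER and WT cells. Of the 18 probe sets, 6 had a log2 fold change above 0 (higher in STAT3-MER cells) and 12 one below 0. This log2 fold change is that of signal + 32, except where another setting is named, and understates differences of dim probe sets. The members lay between -0.36 and 0.42 with a median of -0.13, and the median over all 36701 probe sets was 0.01. None of the 18 had an adjusted p under 0.05 (limma, Benjamini-Hochberg, smallest 0.9996), and 0.00272% of all probe sets did. None had an unadjusted p under 0.05 either, against 3.45% of all probe sets. The methods' criteria (ratio over 1.5, difference of signals over 100 and p under 0.1 in the methods' t-test) were met by 1.98% of all probe sets and by none of the 18. By its p alone, 2006 probe sets had a p under 0.1, that of Ezh2 as the only member among them, and none after adjustment. The groups did not overlap for 1 of the 18 probe sets, that of Ezh2, which is 5.56% of them against 8.13% of all probe sets. STAT3-MER cells were above WT cells there, as in 4.5% of all probe sets, and no member lay below WT cells without overlap, as 3.63% of all probe sets did. An exact permutation test of 3 dishes against 3 cannot give a p below 0.1.

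**Figure D1:**
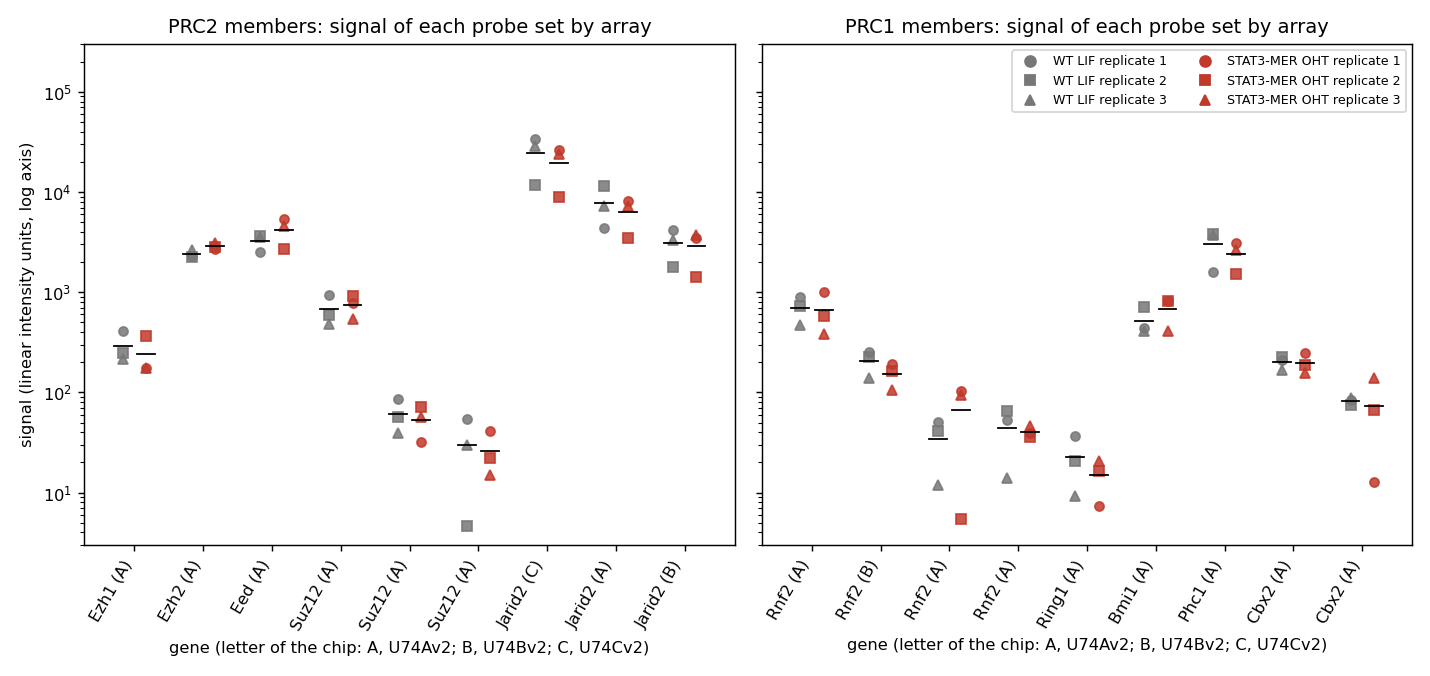
Signal of each Polycomb probe set (linear intensity units on a log axis) in the 3 WT and 3 STAT3-MER arrays, with PRC2 on the left and PRC1 on the right; points are arrays and black bars are group means. The groups overlap for every probe set except that of Ezh2, where the 3 STAT3-MER arrays lie above the WT arrays.

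Ezh2 is the methyltransferase subunit of PRC2 that proliferating cells mostly use. Its probe set gave 2307, 2224 and 2648 in the WT dishes and 2679, 2829 and 3087 in the STAT3-MER dishes. All 3 STAT3-MER dishes were above all 3 WT dishes, but the highest WT dish was close to the lowest STAT3-MER dish. The means were 2393 ± 225 and 2865 ± 206 (SD, n = 3 dishes each), a ratio of 1.20. The log2 fold change was 0.26 with a standard error of 0.17 and a 95% confidence interval of -0.12 to 0.64 (limma, unadjusted p = 0.158, adjusted p = 0.9996). Ezh2 was also the steadiest member between dishes of a group. Among the 1997 probe sets of U74Av2 with a mean signal of at least 1000, 93.8% had a larger standard deviation within groups.

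Ezh1 is the other methyltransferase of PRC2 and is known from resting and differentiated cells. It was measured at 413, 248 and 213 for WT and at 175, 367 and 177 for STAT3-MER dishes. One dish of each group, WT replicate 1 and STAT3-MER replicate 2, read well above the others of its group, and the groups overlapped. The log2 fold change was -0.28 (standard error 0.36, 95% confidence interval -1.11 to 0.56). It was -0.02 with WT replicate 1 left out and -0.59 with STAT3-MER replicate 2 left out, the arrays with the high Ezh1 values.

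Eed, the subunit that binds the methyl mark, read 2514, 3654 and 3516 for WT and 5415, 2668 and 4541 for STAT3-MER dishes. Both groups had their lowest value in the array with the low Gapdh ratio, and the other 2 STAT3-MER dishes were above every WT dish. The log2 fold change was 0.34 (standard error 0.29, 95% confidence interval -0.32 to 1.00). Without STAT3-MER replicate 2 it was 0.63 (unadjusted p = 0.0298, limma adjusted p above 0.99 as for all members). In that setting 1400 of all 36701 probe sets had an unadjusted limma p under 0.05. Among them were 2 members, this one and a dim probe set of Rnf2.

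Suz12, the scaffold of the core of PRC2, was read above the array median by 1 of its 3 probe sets. This one gave 939, 595 and 482 for WT and 779, 907 and 539 for STAT3-MER dishes. The groups overlapped over most of their range, and differed by 0.16 on the log2 scale (standard error 0.30, 95% confidence interval -0.52 to 0.84), which was 0.42 without WT replicate 1, 0.00 without STAT3-MER replicate 2 and -0.04 without WT replicate 3. The other 2 probe sets were below the median of every array, with signals of 31.7 to 85.8 and of 4.68 to 54.8, and their log2 fold changes were -0.12 and -0.02.

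Jarid2 is a DNA-binding partner of PRC2 that is abundant in ES cells and takes part in bringing the complex to its targets. It had 1 probe set on each chip. On U74Av2 it gave 4419, 11582 and 7197 for WT and 8117, 3450 and 7278 for STAT3-MER dishes. On U74Bv2 the values were 4159, 1789 and 3308 for WT and 3507, 1403 and 3687 for STAT3-MER dishes. On U74Cv2, where the suffix of the probe set marks possible cross-hybridization, they were 33652, 11865 and 28673 for WT and 26162, 8968 and 23897 for STAT3-MER dishes. The means of STAT3-MER cells were lower on all 3 chips, and the groups overlapped on all 3. The log2 fold changes were -0.28, -0.14 and -0.34 with standard errors of 0.42, 0.41 and 0.47. Without STAT3-MER replicate 2 they were 0.10, 0.30 and 0.15, so the direction on every chip turned without that array. It also turned on U74Av2 with WT replicate 2 left out (0.06) and on U74Bv2 with WT replicate 1 left out (0.11).

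Dishes of a group differed more in Jarid2 than the groups did. The highest dish of a group was 2.62 and 2.35 times the lowest on U74Av2 (WT and STAT3-MER), 2.32 and 2.63 times on U74Bv2 and 2.84 and 2.92 times on U74Cv2. Of the probe sets of the same chip with a mean signal of at least 1000, 7.51%, 7.27% and 5.63% had a larger standard deviation within groups. The lowest Jarid2 signal of a group came on every chip from the array with the lowest Gapdh ratio of that group. It was WT replicate 1 on U74Av2 and WT replicate 2 on U74Bv2 and U74Cv2, with STAT3-MER replicate 2 on all 3 chips. The middle to 3′ Actb ratio, given above, was low in these WT arrays but not in STAT3-MER replicate 2. The 5′ to 3′ Actb ratio was lowest of its group in these WT arrays and in STAT3-MER replicate 2. The summed fibroblast markers on U74Av2 were 37851, 18812 and 45833 for WT and 11404, 44749 and 34328 for STAT3-MER dishes. On this chip the highest Jarid2 dish of each group had the lowest fibroblast sum. The lowest Jarid2 dish had the highest fibroblast sum in the STAT3-MER group but not in the WT group. The part of RNA quality and of feeder RNA in this spread was not tested.

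**Figure D2:**
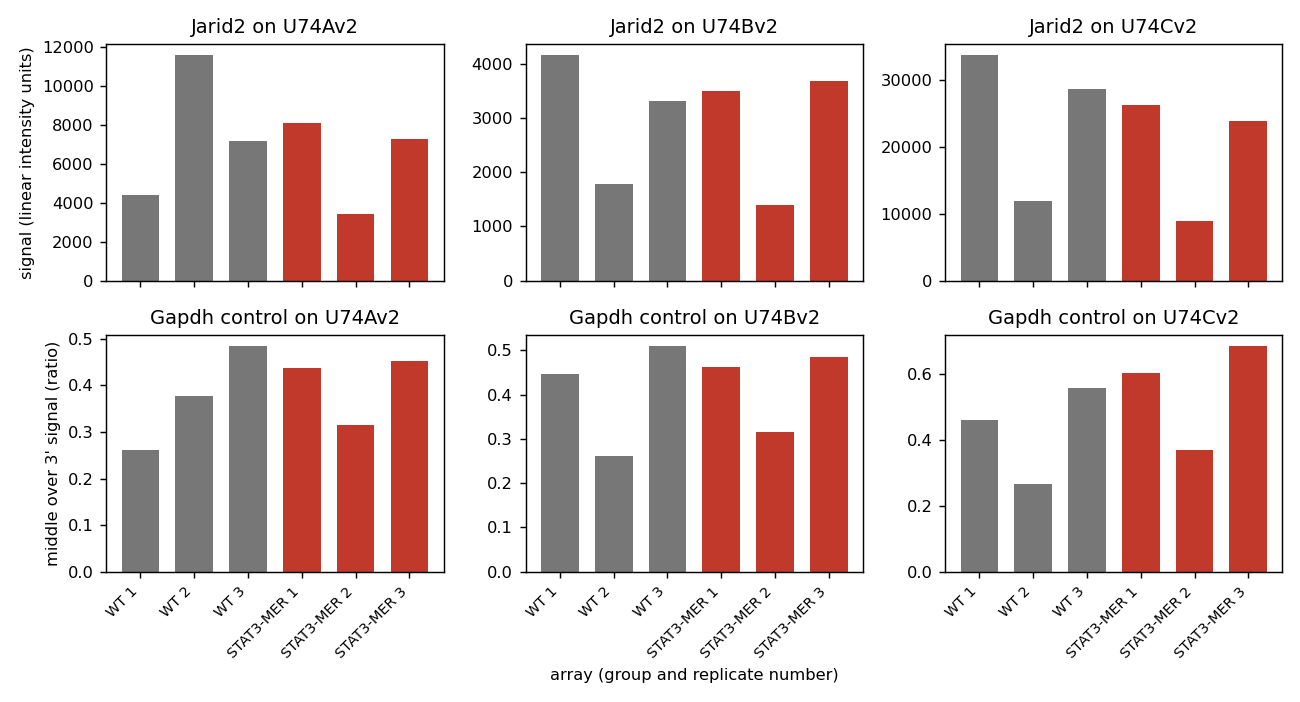
Upper row, signal of the Jarid2 probe set of each chip (linear intensity units) in the 3 WT arrays (grey) and 3 STAT3-MER arrays (red); lower row, ratio of the middle to the 3′ signal of the Gapdh control on the same arrays. On every chip the lowest Jarid2 bar of a group stands over the lowest Gapdh ratio of that group, at WT 1 on U74Av2 and WT 2 on the other chips.

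Rnf2 (Ring1b), the main ubiquitin ligase of PRC1 in ES cells, was read by 4 probe sets. The brightest on U74Av2 gave 890, 732 and 472 for WT and 1012, 577 and 386 for STAT3-MER dishes. The groups overlapped, replicate 3 was lowest in both, and their difference was -0.14 on the log2 scale (standard error 0.37, 95% confidence interval -0.98 to 0.71). It was 0.05 with WT replicate 1 left out and 0.17 with STAT3-MER replicate 3 left out.

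The Rnf2 probe set on U74Bv2 read 253, 224 and 140 for WT and 191, 163 and 106 for STAT3-MER dishes, with replicate 3 again lowest in both groups and a difference of -0.36 on the log2 scale (standard error 0.43). This was the lowest value of any member, in a probe set whose suffix marks possible cross-hybridization and which was below the median of every array. The other 2 Rnf2 probe sets on U74Av2 were dim. One read 50.2, 41.2 and 11.9 for WT and 102, 5.45 and 94.6 for STAT3-MER dishes, which differed by 0.42 on the log2 scale (standard error 0.51), the highest of any member. Without STAT3-MER replicate 2, the dish at 5.45, this was 1.02 (unadjusted p = 0.0227, limma adjusted p above 0.99). The other was at 14.0 to 65.8 with a log2 fold change of 0.00. The 4 probe sets of Rnf2 thus differed in sign, and none passed the test.

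Ring1, which codes for the paralogous ligase Ring1a, was dim on every array. Its probe set gave 37.0, 20.8 and 9.33 for WT and 7.30, 16.3 and 20.9 for STAT3-MER dishes. The groups overlapped and all 6 signals lay below the array medians. The ratio of means was 0.661 and the log2 fold change -0.20 (standard error 0.22, 95% confidence interval -0.71 to 0.32).

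Bmi1, a partner that stimulates the ligase in canonical PRC1 and represses the Cdkn2a locus, read 438, 713 and 411 for WT and 808, 820 and 413 for STAT3-MER dishes. STAT3-MER replicates 1 and 2 were above every WT dish, and STAT3-MER replicate 3 was level with the lowest of them. The log2 fold change was 0.35 (standard error 0.33, 95% confidence interval -0.40 to 1.09).

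Phc1, a polyhomeotic subunit through which PRC1 complexes join into larger assemblies, read 1594, 3820 and 3734 for WT and 3063, 1522 and 2647 for STAT3-MER dishes. WT replicate 1 and STAT3-MER replicate 2 were lowest, as for Jarid2 and Eed. The log2 fold change was -0.29 (standard error 0.39, 95% confidence interval -1.18 to 0.60), and it was 0.01 without STAT3-MER replicate 2. Its promoter, shown above, is the one that held TTCCCAGAA.

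Cbx2, a chromodomain subunit that binds methylated histone H3, read 210, 225 and 167 for WT and 249, 189 and 155 for STAT3-MER dishes by its brighter probe set. The groups overlapped, and differed by -0.03 on the log2 scale (standard error 0.28, 95% confidence interval -0.67 to 0.60). It was 0.00 to 0.11 without WT replicate 1 or 2 or STAT3-MER replicate 3. The other probe set gave 83.2, 75.4 and 88.5 for WT and 12.6, 66.3 and 138 for STAT3-MER dishes. Here the WT dishes lay close together and the STAT3-MER dishes on both sides of them, at a log2 fold change of -0.33 (standard error 0.46), which was 0.18 without STAT3-MER replicate 1.

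**Figure D3:**
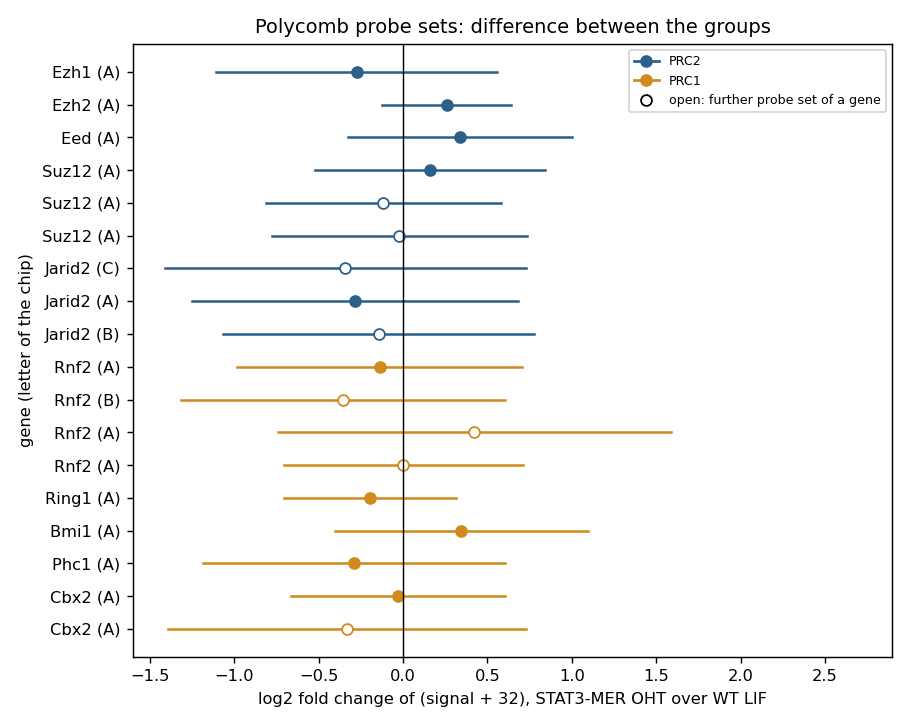
Log2 fold change of signal + 32, STAT3-MER OHT over WT LIF, for each Polycomb probe set of PRC2 (blue) and PRC1 (orange), with the 95% confidence interval of limma; filled points are the probe sets used per gene. All 18 intervals include 0, and the points of both complexes lie on either side of it.

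The complexes were compared with 1 probe set per gene, all of them on U74Av2. In level, all 5 PRC2 genes and 4 of the 5 PRC1 genes were above the median of every array, and Ring1 was below the median of every array. Over all probe sets, 7 of 9 in PRC2 and 4 of 9 in PRC1 were above the median on all 6 arrays of their chip, and the remaining ones were below it on all 6. Mean signals over the 6 arrays ran from 265 to 7007 for the PRC2 genes and from 18.6 to 2730 for the PRC1 genes. Since the brightness of a probe set also depends on its oligonucleotides, these ranges describe the chip and give no order of RNA levels between genes or complexes.

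In difference, the complexes lay in the same range. Of the PRC2 genes Ezh2, Eed and Suz12 had a log2 fold change above 0 and Ezh1 and Jarid2 one below 0. Of the PRC1 genes Bmi1 was above 0 and the other 4 below. The range was -0.28 to 0.34 in PRC2 and -0.29 to 0.35 in PRC1. The median was 0.16 over the PRC2 genes and -0.14 over the PRC1 genes, against 0.00 over all 15964 genes. With every probe set as a separate value the medians were -0.12 and -0.14, with 3 of 9 higher in either complex, and with the mean over the probe sets of each gene they were 0.0066 and -0.18. The gap between the medians thus closed with separate probe sets and was smaller with the means. No subunit of either complex passed the test, and the groups of every subunit except Ezh2 overlapped.

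The level of each complex was also followed array by array, as the median over its 5 genes of log2(signal + 32) minus the gene's mean over the 6 arrays. For PRC2 it was -0.18, -0.02 and -0.03 in the WT arrays and 0.18, 0.11 and 0.16 in the STAT3-MER arrays. For PRC1 it was 0.08, 0.18 and -0.27 for WT and 0.30, -0.05 and -0.29 for STAT3-MER arrays. The PRC2 medians of the groups did not overlap and the PRC1 medians did. These medians are a description with no test, and each stands for whichever gene lay in the middle on that array. For PRC2 this gene was Ezh2, the member without overlap, on WT replicate 1 and STAT3-MER replicate 2. The median log2 fold change over the PRC2 genes turned to -0.042 with WT replicate 3 left out. The PRC2 genes lay on both sides of 0 on each array.

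**Figure D4:**
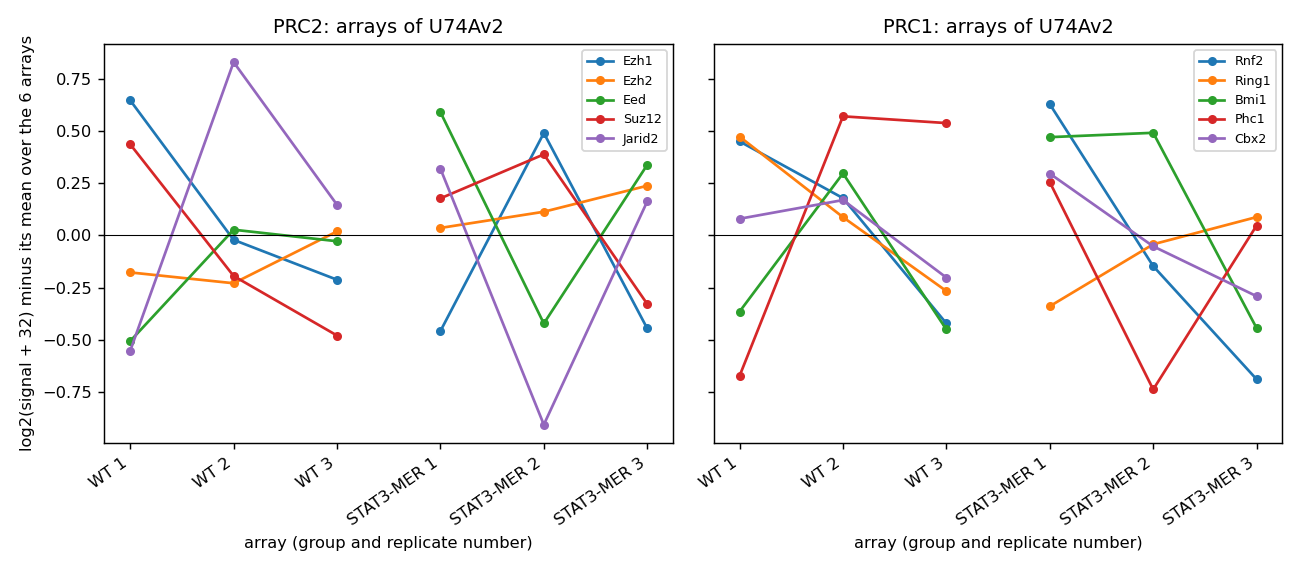
Log2(signal + 32) of each PRC2 gene (left) and PRC1 gene (right) on U74Av2, minus the gene's mean over the 6 arrays; lines join the points of a gene within a group and carry no order. Jarid2, Eed and Phc1 dip at WT 1 and STAT3-MER 2, Ezh1 and Suz12 peak there, and Ezh2 stays within a narrow band.

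Members of a complex differed in the order of their dishes. Of the 15 member probe sets on U74Av2, those of Jarid2, Eed and Phc1 were lowest of their group in both WT replicate 1 and STAT3-MER replicate 2, the arrays with the low Gapdh ratio. Those of Ezh1 and 2 of the 3 of Suz12 were highest of their group in both. Over all 12422 probe sets tested on this chip, 14.5% had the former order and 20.9% the latter. Rnf2, Bmi1, Cbx2 and Suz12, each by its brightest probe set, were lowest in replicate 3 of both groups, which held for 13.6% of all probe sets on the chip. Each of these sets of genes crossed the line between PRC2 and PRC1 except Ezh1 with Suz12.

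Further parts of the Polycomb system were read from fixed lists with 1 probe set per gene. Of 44 genes 37 were measured. These were 6 of 7 PRC2 partners, 17 of 21 other PRC1 genes, the 4 genes of the deubiquitinase PR-DUB and 10 of 12 genes of the opposing demethylases and trithorax group. In all, 16 had a log2 fold change above 0 and 21 one below 0, with a median of -0.03, none passed the test, and 1 (2.70%) had an unadjusted p under 0.05, against 2.93% of all 15964 genes. The groups did not overlap for 2 (5.41%), against 7.52% of all genes. By list the medians were 0.01 for the PRC2 partners, -0.08 for the other PRC1 genes, 0.03 for PR-DUB and 0.00 for the opposing genes.

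The 4 genes of these lists with the smallest p were Mga, Asxl3, Pcgf1 and Rbbp4. Mga, the DNA-binding subunit of a variant PRC1, gave 2756, 2983 and 1823 for WT and 1744, 634 and 1241 for STAT3-MER dishes (log2 fold change -1.12, standard error 0.37, limma adjusted p = 0.9996). All 3 STAT3-MER dishes were below all 3 WT dishes. A second Mga probe set, whose suffix marks possible cross-hybridization, also had them below, with a log2 fold change of -0.67. The other 2 Mga probe sets, without such a suffix, went the other way, at 0.26 and 0.48, with overlapping groups. Asxl3, a partner of the deubiquitinase, read 80.5, 33.1 and 169 for WT and 182, 172 and 217 for STAT3-MER dishes, also without overlap (0.96, standard error 0.50). These signals lay below every array median of U74Bv2 (246 to 269). Pcgf1 (-1.08, standard error 0.62) and Rbbp4, a histone-binding partner of PRC2 (0.32, standard error 0.20), overlapped between the groups.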

How the data were processed

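Total RNA of each dish was amplified, labelled and hybridized by the authors, who deposited 1 linear signal intensity per probe set and array without detection calls. MAS5 is named, without a version, in the processing notes of the submitters. The mean signal of each array without the outer 2% on each side was 500.1 to 500.3, so that each array had been scaled. Here arrays were brought to the mean of these values on their chip, which left the signals almost as they were, and log2(signal + 32) was compared with limma 3.58.1 in R 4.3.3 (two-sided, each chip fitted alone by lmFit and eBayes with a variance trend). The Benjamini-Hochberg adjustment ran over 36701 probe sets (198 controls left out) at a threshold of 0.05. The values of the authors' dChip models were not used here.

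Genes come from the annotation of the chips. Of the probe sets 29131 had 1 gene, 724 several and 6846 none, and 29110 were matched to RefSeq genes of GRCm38.p6. Per gene, a probe set without a cross-hybridization suffix was preferred, then the brightest. The rule for naming took all members with every probe set, Esr1 and Stat3 as transgene parts, the markers Pou5f1, Nanog, Col1a1 and Col1a2, and the 4 genes of the smallest p in the wider lists and in the targets. The members and lists were chosen with earlier results of these data known. One STAT3-MER array of U74Av2 carries no number and is called replicate 2. One array labelled with 2 chips was placed by its probe sets. Alternatives were other scalings, pseudocounts of 8 and 100, a dim filter, no variance trend, adjustment per chip, a replicate block, each replicate left out and the methods' t-test with unequal variances. The fit was tested on simulated data. Figures were drawn with matplotlib 3.10.9.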

Additional observations from a re-analysis of the deposited data

How the results depend on the processing

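No member passed the test under any setting tried. Of 156 member values with all dishes kept, 4 turned their sign, all of dim probe sets. The fourth Rnf2 probe set went from 0.00 to -0.0092 with quantile normalization, -0.018 with a pseudocount of 100 and -0.12 with the methods' t-test, and the dimmest of Suz12 from -0.02 to 0.068 with a pseudocount of 8. The value given for the methods' t-test is the log2 ratio of mean signals without a pseudocount, which is another measure. With a dish left out, 21 of 108 values in 11 probe sets turned their sign. The ranges were -0.042 to 0.42, -0.29 to 0.080 and -0.35 to 0.27 for Suz12, -0.63 to 0.10, -0.49 to 0.30 and -0.80 to 0.15 for Jarid2, -0.49 to 0.17 and -0.33 to 0.22 for Rnf2, -0.70 to 0.0058 for Phc1, and -0.19 to 0.11 and -0.79 to 0.18 for Cbx2. Those that kept their sign were Ezh1 at -0.59 to -0.02, the other Rnf2 probe sets at -0.57 to -0.15 and 0.10 to 1.02, Ring1 at -0.38 to -0.01, Ezh2 at 0.20 to 0.33, Eed at 0.13 to 0.63 and Bmi1 at 0.19 to 0.65. The PRC2 median was -0.042 to 0.20 with a dish left out, 0.0066 with the mean over the probe sets of a gene and -0.12 with all probe sets as separate values. The PRC1 median was -0.19 to 0.11 with a dish left out. Among all probe sets, 1 or 2 were called higher with a dish left out, and the methods' criteria took 405 higher and 320 lower ones, with 0 after adjustment of that t-test. The causes were not tested. A filter on a mean signal of 100 left 12 of the 18 members.

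Same-numbered WT and STAT3-MER arrays had correlated deviations from their group means on U74Bv2 (0.13 to 0.21) and U74Cv2 (0.07 to 0.13), where each array correlated best with its own number, but not on U74Av2 (-0.30, -0.33 and 0.29). There WT replicate 1 correlated best with STAT3-MER replicate 2 (0.46) and WT replicate 2 with STAT3-MER replicate 1 (0.41), so the block joined arrays of U74Av2 that did not deviate together. With the replicate block 1 probe set and no member was called, and 1468 probe sets had an unadjusted p under 0.05 against 1268 without it. Among them was the Jarid2 probe set of U74Cv2 (-0.34, standard error 0.12, unadjusted p = 0.0226, limma adjusted p = 0.9995).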

Other observations

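Genes listed as targets of Polycomb complexes in ES cells were read as well. Whether each of them is silent in these cells was not tested. Of 69 such genes, the Hox genes and other developmental regulators, 66 were measured. By 1 probe set per gene, 34 had a log2 fold change above 0 and 32 one below 0, with a median of 0.01 against 0.00 over all genes. None passed the test, 2 (3.03%) had an unadjusted p under 0.05, against 2.93% of all genes, and the groups did not overlap for 2 (3.03%, against 7.52% of all genes). The 4 with the smallest p were Hoxa4, Isl1, Pax3 and Nkx2-2. Isl1, a LIM homeobox gene of heart and motor neuron precursors, read 176, 194 and 145 for WT and 229, 607 and 541 for STAT3-MER dishes (1.17, standard error 0.46). Its other probe set was dim and had a log2 fold change of -0.11. Hoxa4 read 33.6, 43.9 and 25.6 for WT and 84.4, 51.3 and 117 for STAT3-MER dishes (0.78, standard error 0.29). These signals lay below every array median of U74Av2 (132 to 157). The brightest Hoxa4 probe set had a log2 fold change of -0.19. Pax3 (0.58, standard error 0.27) and Nkx2-2 (0.57, standard error 0.35) were dim, with overlapping groups.

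Some other genes were lowest in the same dishes of U74Av2 as Jarid2. They were chosen after their values were seen. Epop, a partner of PRC2, read 765, 2908 and 1847 for WT and 2835, 719 and 2614 for STAT3-MER dishes. Utf1, a chromatin factor of ES cells, read 2905, 8363 and 5555 for WT and 7335, 2891 and 6870 for STAT3-MER dishes. Pou5f1 read 2157, 5824 and 5054 for WT and 6533, 3562 and 8348 for STAT3-MER dishes. For all 3 genes WT replicate 1 and STAT3-MER replicate 2 were lowest, as for 14.5% of all probe sets tested on this chip. A dim Pou5f1 probe set of the same chip was lowest in WT replicate 3 and STAT3-MER replicate 2. It gave 47.6, 72.8 and 35.2 for WT and 65.6, 35.3 and 98.9 for STAT3-MER dishes. On U74Cv2 Pou5f1 was lowest in WT replicate 2 and STAT3-MER replicate 3. One Utf1 probe set there was highest in STAT3-MER replicate 2, and another was lowest in it. The ES cell marker Nanog went the other way on U74Av2. It read 14179, 7593 and 7035 for WT and 8404, 11228 and 10689 for STAT3-MER dishes. A second Nanog probe set was also highest in WT replicate 1 and STAT3-MER replicate 2. On the same chip the summed signal of all 8 ES cell markers was 81623, 68955 and 55081 for WT dishes. It was 64773, 59650 and 70469 for STAT3-MER dishes. The sum was thus highest of its group in WT replicate 1 and lowest in STAT3-MER replicate 2. Phc3, a polyhomeotic paralog also chosen after its values were seen, was read by 2 probe sets of U74Bv2. The one used for the gene differed by 0.53 on the log2 scale (standard error 0.70) with overlapping groups, and the other, the dimmer of both, by 1.35 (standard error 0.46) without overlap. Neither passed the test (limma adjusted p = 0.9996), and groups did not overlap for 8.13% of all probe sets.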
